A study of Mus musculus with 4 samples.

Results

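The Rab GTPases of mouse primary myoblasts were examined with and without the DNA dioxygenase Tet2. They were taken as the genes of the expression table whose symbol was Rab followed by a number, with at most a letter and a further digit after it, and 59 of 24445 genes met this rule. Symbols with other endings, such as that of the Rab-like genes, were left out by the rule. The cells were grown from C57BL/6 mice that were wild type (WT) or lacked a functional Tet2 in every cell (Tet2 KO, a constitutive knockout with exon 3 of Tet2 deleted). The study's methods give male mice of 8 to 10 weeks unless stated otherwise. Satellite cells, which are the muscle stem cells, had been sorted from hindlimb muscle as CD34+ and Integrin a7+ cells without CD45, CD11b, CD31 and Sca1, and kept in proliferation medium on collagen for at least 3 days, by which time they were myoblasts. Each group had 2 RNA libraries, and the labels do not say whether these came from separate animals. The table holds 1 pooled value per gene and group, so no difference below has a standard deviation, a test or a replicate check. All differences describe these pooled libraries.

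Rab proteins are small GTPases of the Ras superfamily that give membranes inside the cell their identity. Exchange factors (GEFs) load a Rab with GTP on its own membrane, the GTP-bound Rab recruits effectors such as tethers and motors, and GTPase-activating proteins (GAPs) switch it off. A lipid chain on cysteines at the carboxyl end holds the protein on the membrane, and GDP dissociation inhibitors carry the inactive form through the cytosol. In muscle, Rab proteins are known for sorting the glucose transporter, for repair of the plasma membrane and for autophagy.

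Expression was measured as FPKM, the fragments of a gene divided by its transcript length in kilobases and by the mapped fragments in units of 1000000, so levels of different genes can be set side by side. Differences are given as log2((Tet2 KO FPKM + 1) / (WT FPKM + 1)), positive where Tet2 KO was higher, over genes whose mean level in the 2 groups was 1 FPKM or more. The added 1 understates the difference of low genes. The table gives no read counts, but its low values fell into steps. In single-exon genes, after multiplying each value by the gene's length in kilobases, the lowest step was 0.0195 in Tet2 KO and 0.02 in WT, the next step was 1.98 and 1.95 times as high, and no value lay between them, so the lowest step was read as 1 fragment. This corresponds to about 51200000 fragments behind the Tet2 KO values and 50000000 behind the WT values. The Rab genes that passed the filter then rested on roughly 100 or more fragments in each group.

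The myoblast label was checked against marker genes. All 10 myoblast markers listed passed the filter, with Myod1 at 313 FPKM in Tet2 KO and 336 in WT, and Des at 372 and 449. Their median difference was -0.15, and Myog (268 and 554) and Ncam1 (50.2 and 79.2) were lower in Tet2 KO past 1.5-fold. The 18 markers called myeloid here are a list of myeloid and other leukocyte markers, with genes such as Ptprc and Cd52. All were present in both groups, none at 0, although the sort had excluded CD45+ and CD11b+ cells before culture. They summed to 556 FPKM in Tet2 KO and 141 in WT, and all 18 were more than 1.5-fold higher in Tet2 KO, with differences from 0.88 for Cd14 to 2.19 for Clec7a. In bulk RNA, more cells of a type and more RNA per cell cannot be told apart. The deposited value of Tet2 itself was 5.79 FPKM in Tet2 KO and 6.64 in WT. It is a value of the whole gene, in which a missing exon need not show, and so it does not check the labels.

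Most of the family was at the same level in both groups. Of the 59 Rab genes 43 passed the filter, and their median difference was 0.02, beside -0.0044 over the 11692 genes that passed. Within the family 24 members were higher and 19 lower in Tet2 KO (55.8% higher, beside 48.8% of all genes). In either direction 30 members (69.8%) differed by no more than 0.2, as did 74.4% of all genes. The summed level of the family was 1219.8 FPKM in Tet2 KO and 1233 in WT, which was 0.216% and 0.217% of all FPKM. Past 2-fold, 2 members were higher in Tet2 KO, Rab32 and Rab27a (4.65% of the 43, beside 2.08% of all genes), and 1 was lower, Rab40b (2.33%, beside 1.21%). Past 1.5-fold, Rab26 and Rab44 joined the higher members, 4 in all (9.30%, beside 3.72%), and Rab4a joined Rab40b among the lower ones, 2 in all (4.65%, beside 2.89%). These shares rest on few genes, and nothing particular to the family is read from them.

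**Figure D1:**
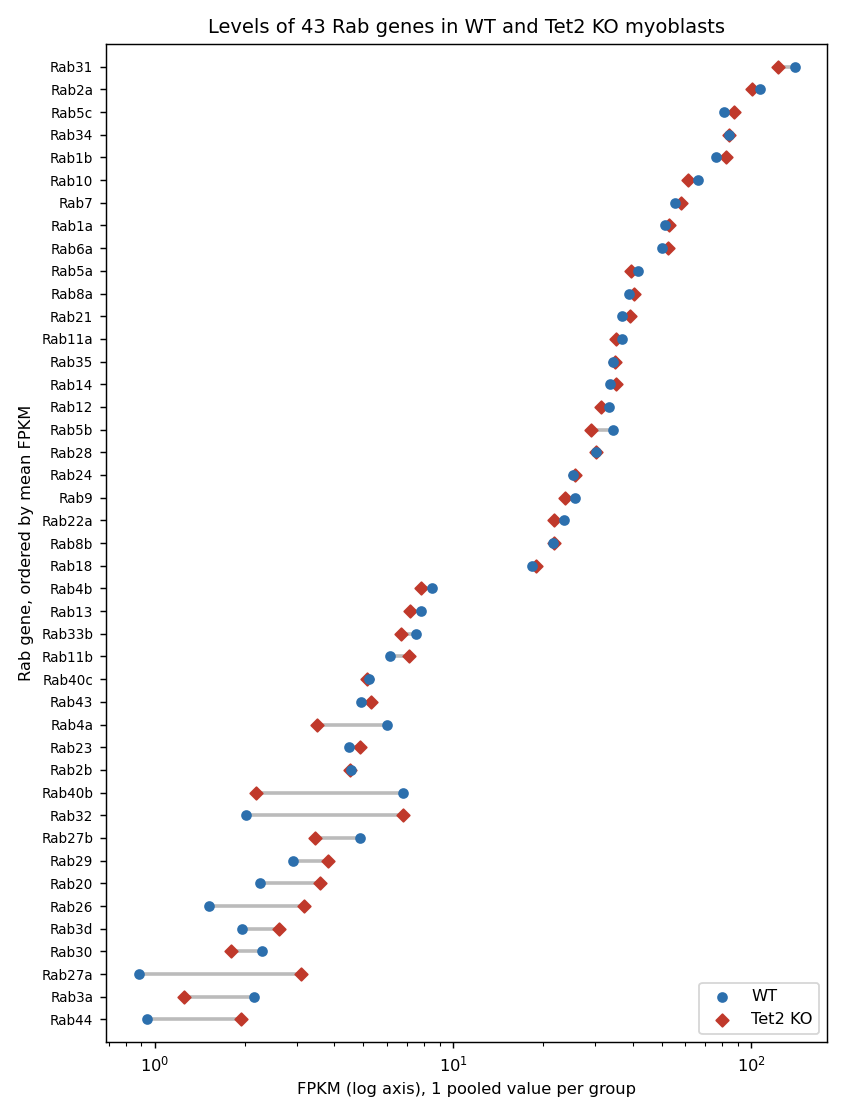
FPKM of the 43 Rab genes that passed the filter in WT (blue circles) and Tet2 KO (red diamonds), 1 pooled value per group, on a log axis and ordered by mean FPKM. The symbols nearly coincide for the genes above 10 FPKM, while Rab32, Rab27a and Rab40b, all under 10 FPKM, are set far apart.

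The differences past 1.5-fold lay in the lowly expressed members. The 23 Rab genes at a mean level of 10 FPKM or more differed by -0.23 to 0.11, so none came near 1.5-fold. Among all 6889 genes at that level, 96.3% stayed within 1.5-fold. Of the 20 Rab genes with a mean FPKM between 1 and 10, 6 were past 1.5-fold in either direction, beside 10.7% of the 4803 genes of the table in that range. The 6 are the members whose values are given one by one below. Of these, Rab27a (0.882 FPKM in WT) and Rab44 (0.942 in WT) passed the filter through their Tet2 KO values alone. The count rests on few genes and on that filter, so nothing particular to the family is read from it.

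**Figure D2:**
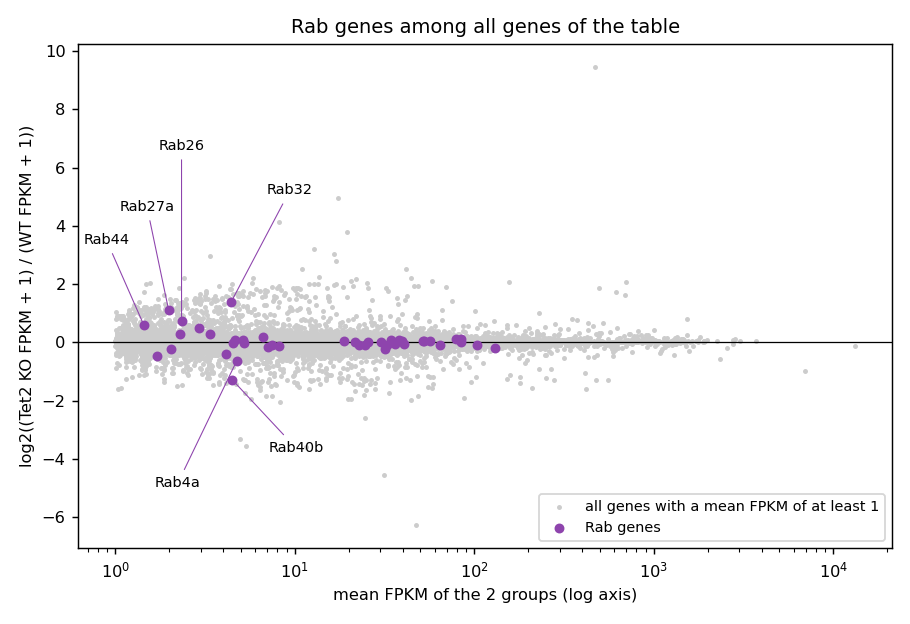
Difference between Tet2 KO and WT (log2 ratio at a pseudocount of 1) against mean FPKM (log axis) for the 11692 genes at a mean level of 1 FPKM or more (grey) and the 43 Rab genes among them (purple), with the 6 Rab genes past 1.5-fold named. The named genes lie at the low end of expression, and the abundant Rab genes lie close to 0.

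Rab32 had the largest difference of the family in the direction of Tet2 KO. Rab32 acts on melanosomes and other lysosome-related organelles, and it is also known at the contacts of mitochondria with the endoplasmic reticulum. Its level was 6.79 FPKM in Tet2 KO and 2.01 in WT, 3.37-fold higher in Tet2 KO on the plain ratio and a difference of 1.37 at a pseudocount of 1. With an annotated transcript of 2108 bases these levels correspond to roughly 734 and 212 fragments. In the order of levels within the family it stood 39th of 59 in WT and 27th in Tet2 KO. For comparison with genes of like level, the table was cut into 5 bins of equal size by mean FPKM. Of the 2338 genes in the bin of Rab32, 42 including Rab32 itself had a difference at least as high, which puts it at percentile 98.2 of that bin. Rab32 was picked out here with its value known, so its place at the top is no independent evidence. Rab32 spans chr10:10264837-10278005 (mm9) on the minus strand, and its annotated transcript has 3 exons.

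Rab27a was the other member past 2-fold in this direction. It moves and docks secretory granules, melanosomes and exosome-bearing compartments at the plasma membrane. Its level was 3.08 FPKM in Tet2 KO and 0.882 in WT, a 3.49-fold plain ratio and a difference of 1.12, from roughly 468 and 131 fragments. Of the 2339 genes in its bin, 86 including itself had a difference at least as high. Rab27a was above 1 FPKM in Tet2 KO alone, as was Rab44 described below. The gene spans chr9:72892617-72945421 (mm9) on the plus strand.

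Rab40b had the largest difference in the other direction. It belongs to a branch of the family that carries a SOCS box and serves as the substrate adaptor of a ubiquitin ligase. Its level was 2.19 FPKM in Tet2 KO and 6.77 in WT, 3.09-fold higher in WT, a difference of -1.29, from roughly 209 and 630 fragments. Only 22 of the 2338 genes in its bin, itself included, had a difference as low. Rab32 and Rab40b had nearly mirrored levels, each close to 6.8 FPKM in the group where it was higher. Rab40b spans chr11:121217435-121249565 (mm9) on the minus strand.

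The 250 bases before the annotated starts of these 3 genes are shown because the members past 2-fold are the ones the comparison turns on, and because Tet2 oxidises methylated cytosine in CG dinucleotides. The sequences are those of RefSeq on GRCm38.p6, each read 5′ to 3′ on the strand of the gene, with every CG in capitals.
Rab32, chr10:10558208-10558457, minus strand: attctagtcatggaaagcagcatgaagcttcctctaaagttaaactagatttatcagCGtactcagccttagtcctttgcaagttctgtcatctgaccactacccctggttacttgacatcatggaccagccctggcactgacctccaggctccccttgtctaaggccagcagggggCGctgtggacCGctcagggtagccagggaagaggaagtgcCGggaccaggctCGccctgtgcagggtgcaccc
Rab27a upstream start, chr9:73044560-73044809, plus strand: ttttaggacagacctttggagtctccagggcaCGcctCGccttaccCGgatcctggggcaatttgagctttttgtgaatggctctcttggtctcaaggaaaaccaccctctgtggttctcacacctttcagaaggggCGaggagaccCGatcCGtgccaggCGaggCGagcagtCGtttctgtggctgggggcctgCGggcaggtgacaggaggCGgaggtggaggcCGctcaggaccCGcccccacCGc
Rab27a downstream start, chr9:73063898-73064147, plus strand: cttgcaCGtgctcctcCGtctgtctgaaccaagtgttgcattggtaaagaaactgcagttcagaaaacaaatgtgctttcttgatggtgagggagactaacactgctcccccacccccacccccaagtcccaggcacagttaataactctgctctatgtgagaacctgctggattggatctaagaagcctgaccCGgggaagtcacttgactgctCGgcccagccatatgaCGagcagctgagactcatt
Rab40b, chr11:121388252-121388501, minus strand: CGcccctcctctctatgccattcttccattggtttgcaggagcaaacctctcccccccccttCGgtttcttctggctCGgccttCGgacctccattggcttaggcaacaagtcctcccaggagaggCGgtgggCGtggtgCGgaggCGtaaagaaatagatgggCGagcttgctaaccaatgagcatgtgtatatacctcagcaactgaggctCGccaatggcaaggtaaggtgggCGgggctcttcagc
Each of the 4 windows occurred once, unaltered, on the chromosome of its gene in mm9, the genome to which the expression data belong. Other chromosomes were not searched for the windows. The Rab32 window holds 5 CG dinucleotides and 1 E box of the general form CANNTG (the core that MyoD and other bHLH factors bind, the same on both strands). The first Rab27a window holds 14 CG and 1 CANNTG, the second 5 CG and 6 CANNTG, and the Rab40b window 11 CG and 2 CANNTG. Over all 32851 promoters of the RefSeq table the median was 6 CG, 92.1% held at least 1 CG and 66.2% at least 1 CANNTG. Rab32 was therefore near the median of all promoters in CG, with 49.6% of them at or below its count. Of the Rab genes 48 matched the table with 60 promoters. The 45 promoters of members that passed the filter had a median of 18 CG and the 15 of members that did not had a median of 7. A match of these letters is a description of the window, and no methylation or binding was measured there in the data used here. Rab26, Rab44 and Rab4a are among the 11 members without a match.

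The members are described by compartment. The groups follow the compartment for which each Rab is best known, and 8 members were left without a group.

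The lysosome-related group holds Rab27a, Rab27b, Rab29, Rab32 and Rab38. Its summed level was 17.6 FPKM in Tet2 KO and 11.0 in WT, and the median difference over its 4 members past the filter was 0.71. Rab29, a partner of the kinase Lrrk2 at the Golgi and on stressed lysosomes, was at 3.81 FPKM in Tet2 KO and 2.91 in WT (0.30). Rab38, which works with Rab32 in melanosome formation, was at 0.494 and 0.345 FPKM, below the filter. Rab27b, the closest relative of Rab27a, went the other way, at 3.43 FPKM in Tet2 KO and 4.86 in WT (-0.40). Rab27a passed the filter through its Tet2 KO value alone. The median lies midway between its value (1.12) and that of Rab29 (0.30), so the median is a description and no support. The group was therefore mixed, with 3 of its 4 members past the filter higher in Tet2 KO and 1 lower. Beside these values stand the myeloid markers given above, whose sum was 3.94 times as high in Tet2 KO. That ratio was larger than that of Rab32 or Rab27a, but Lyz2 alone made up 253 of the 556 FPKM in Tet2 KO. Single markers ran from 2.11-fold (Cd68) to 7.05-fold (Clec7a) higher on the plain ratio, with markers on either side of Rab32 (3.37-fold) and Rab27a (3.49-fold). The part of RNA from myeloid or other leukocytes in the Rab32 and Rab27a differences was not tested. Of the melanocyte markers, Mlana and Tyrp1 were listed at 0 in both groups and Mitf alone passed the filter, at 2.09 FPKM in Tet2 KO and 1.27 in WT.

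The Rab genes of the secretory route into the Golgi, 9 of 10 past the filter, had a median of 0.03 and none past 1.5-fold. Their extremes were Rab30 at 1.80 FPKM in Tet2 KO and 2.29 in WT (-0.23) and Rab1b, which drives transport from the endoplasmic reticulum to the Golgi, at 82.5 and 76.2 (0.11). Rab2a, which acts at the same border, was the second most abundant Rab gene in both groups, at 101 FPKM in Tet2 KO and 107 in WT (-0.08). Rab43, also of this route, was at 5.31 and 4.92 FPKM (0.09).

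Among the 7 early endosome members past the filter the median was -0.07. Rab31, which carries cargo between the Golgi and endosomes, was the most abundant Rab gene in both groups, at 122 FPKM in Tet2 KO and 139.8 in WT (-0.19). Rab5c, an isoform of the master Rab of early endosome fusion, was at 87.7 and 81.1 FPKM (0.11), and Rab5b was at 29.0 and 34.3 (-0.23). Rab20, which acts on maturing phagosomes, had the highest value of the group, at 3.57 FPKM in Tet2 KO and 2.25 in WT (0.49), short of 1.5-fold at a pseudocount of 1. Its plain ratio was 1.59-fold.

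The recycling group of 6 passing members had a median of -0.02 and was near 0 but for Rab4a. Rab4a returns receptors from early endosomes to the surface by the fast route. It was at 3.48 FPKM in Tet2 KO and 6.00 in WT (-0.64), from roughly 253 and 426 fragments, and 67 of the 2338 genes in its bin had a difference as low. Rab11b, of the slow recycling route, had the highest value at 7.13 and 6.14 FPKM (0.19). Rab4a spans chr8:126329896-126359191 (mm9).

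Of the late endosome and lysosome group 5 of 8 members passed, with a median of 0.0033 and values from -0.11 for Rab9 (23.7 FPKM in Tet2 KO and 25.6 in WT) to 0.06 for Rab7 (57.9 and 55.6). Rab9 returns mannose 6-phosphate receptors to the Golgi and Rab7 controls fusion with lysosomes. Rab34, which places lysosomes near the nucleus, was the third most abundant Rab gene in WT, at 84.3 FPKM in Tet2 KO and 84.1 in WT (0.0033). Rab7b was left out by the filter with a mean of 0.66 FPKM, and was the remaining member above 1 FPKM in just 1 group. It was at 1.06 FPKM in Tet2 KO and 0.264 in WT, from roughly 141 and 34 fragments, a plain ratio of 4.01.

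In the exocytosis group 7 of 11 members passed, with a median of 0.02. Rab26, which acts on secretory granules and synaptic vesicles, was at 3.16 FPKM in Tet2 KO and 1.51 in WT (0.73), from roughly 232 and 108 fragments, and 177 of the 2339 genes in its bin had a difference at least as high. The antisense gene Rab26os lies 310 bases away from it. Rab3a, the Rab of synaptic vesicle release, had the lowest value of the group at 1.25 and 2.14 FPKM (-0.48), and shares its interval with Mpv17l2 (11.9 FPKM in Tet2 KO and 14.5 in WT). Without strand, reads of such overlapping genes cannot be told apart.

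The cilium group was level, with Rab28 at 30.1 FPKM in both groups (0.0037) and Rab23, an inhibitor of Hedgehog signalling, at 4.86 FPKM in Tet2 KO and 4.48 in WT (0.10). Among the members without a group, Rab44 passed 1.5-fold by a narrow margin, with a difference of 0.60 where 0.58 was needed. It is an unusually large Rab, with a protein of 725 residues beside a family median of 215. Its level was 1.94 FPKM in Tet2 KO and 0.942 in WT, from roughly 408 and 194 fragments, and 221 of the 2339 genes in its bin had a difference at least as high.

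The values on either side of the 1.5-fold threshold were close to it. Rab44 (0.60) and Rab4a (-0.64) lay just inside, and Rab20 (0.49) and Rab3a (-0.48) lay just outside. The added 1 set Rab20 and Rab3a outside, because on plain ratios both were past 1.5-fold. Rab20 was 1.59-fold higher in Tet2 KO. Rab3a was 1.715-fold higher in WT, beside 1.722-fold for Rab4a.

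**Figure D3:**
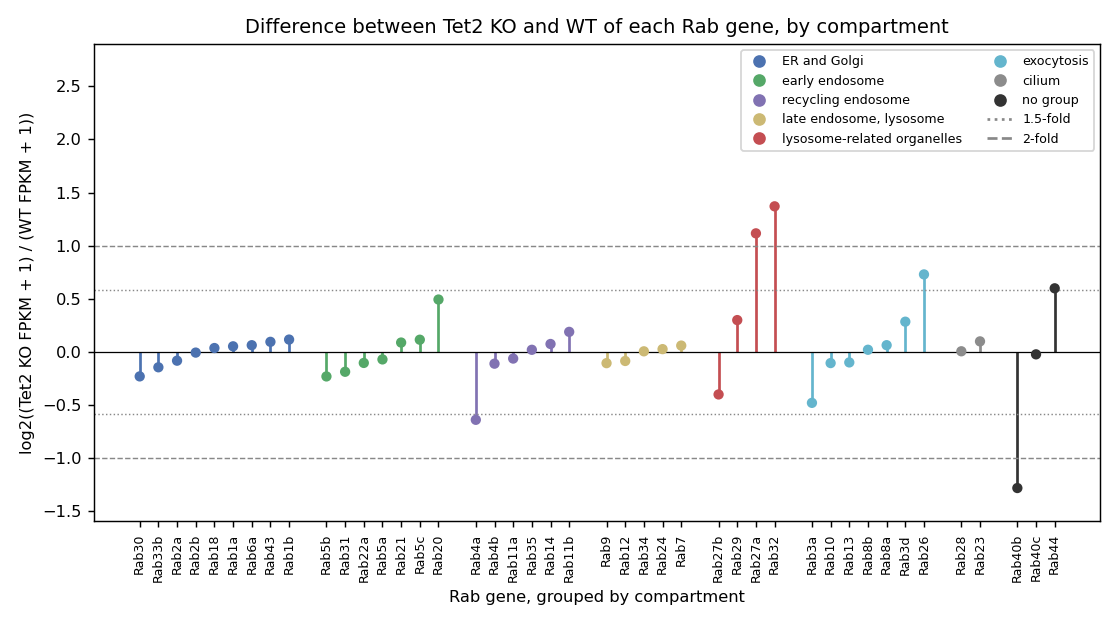
Difference between Tet2 KO and WT of each of the 43 Rab genes past the filter (log2 ratio at a pseudocount of 1), grouped and coloured by compartment, with dotted lines at 1.5-fold and dashed lines at 2-fold. Rab32 and Rab27a of the lysosome-related group stand above the upper dashed line and Rab40b, which has no group, stands below the lower one.

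The 16 Rab genes below the filter had mean levels from 0.0199 to 0.668 FPKM, and 14 of them were under 0.5 FPKM in both groups. In plain values 9 were higher and 7 lower in Tet2 KO. Roughly 98 and 116 fragments stood behind Rab15 in Tet2 KO and WT and 141 and 34 behind Rab7b, and at most 57 in a group behind each of the other 14. Rab25, known from epithelial cells, was listed at 0 in Tet2 KO and at 0.0399 FPKM in WT. Rab37 was at 0.215 and 0.114 FPKM and shares its interval with Cd300lf, a receptor of myeloid cells that was at 4.48 FPKM in Tet2 KO and 0.983 in WT, and reads of the overlapping stretch cannot be told apart.

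The 3 proteins most like Rab32 were looked at because members of a small subfamily often act on the same organelle. Over the coding sequences of GENCODE, Rab38 was 62.2% identical to Rab32 and Rab29 46.2%, and the next, Rab43, was at 34.9%, close to the family median of 29.4%. Rab32, Rab38 and Rab29 are thus set apart from the rest by sequence. In level they differed in WT, at 2.01, 0.345 and 2.91 FPKM, and in Tet2 KO, at 6.79, 0.494 and 3.81 FPKM. All 3 were higher in Tet2 KO in plain values, and Rab32 alone passed 1.5-fold. All 59 proteins held at least 1 cysteine in their last 5 residues, where the lipid is attached, and 50 held 2.

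Values of close relatives were set side by side. Among the 17 pairs of Rab genes with at least 60% identity and both members past the filter, the median distance between the log2 differences was 0.16, and 13 pairs (76.5%) were no more than 0.35 apart. Over all 903 pairs of the 43 members the median distance was 0.22 and 61.9% were no further apart than that. Several pairs share a member, so they are not independent, and nothing particular to relatives is read from these shares. The 4 other pairs held members named above. Rab27a and Rab27b, 71.9% identical, were 1.52 apart and lay on opposite sides of 0. Rab40b and Rab40c, 77.3% identical, were 1.26 apart, and Rab40c was level at 5.13 FPKM in Tet2 KO and 5.24 in WT. Rab3a and Rab3d, 76.0% identical, were 0.76 apart. Rab4a and Rab4b, 84.9% identical, were 0.53 apart, with Rab4b at 7.80 and 8.52 FPKM. Pairs with a member below the filter were left out of these counts, among them Rab32 and Rab38 (62.2% identical and 1.22 apart) and Rab26 and Rab37 (60.5% identical and 0.60 apart).

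**Figure D4:**
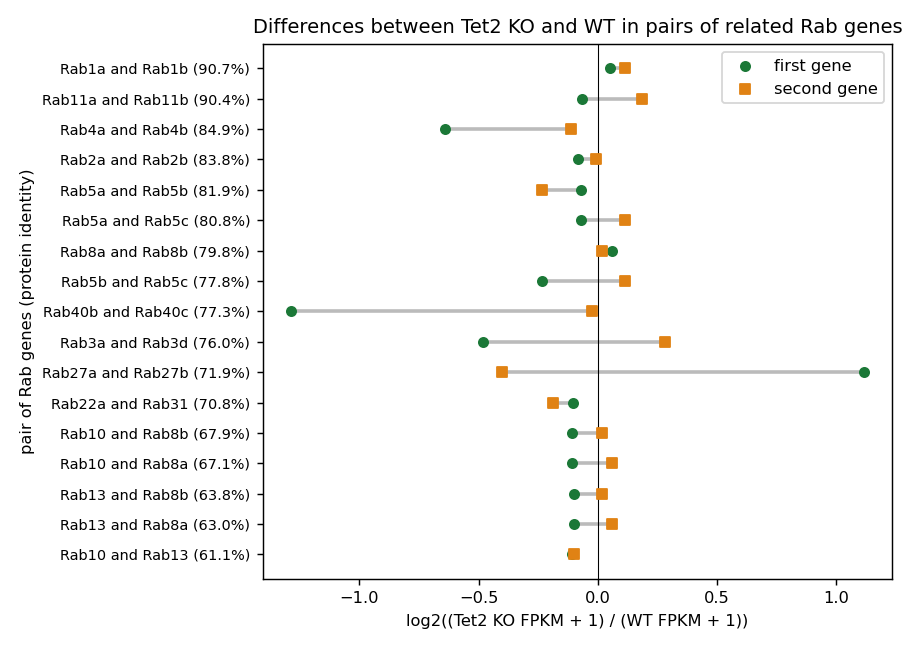
Differences between Tet2 KO and WT (log2 ratio at a pseudocount of 1) in the 17 pairs of Rab genes with at least 60% protein identity, ordered by identity, with a line joining the pair. The 13 short lines span at most 0.35, and the longest joins Rab27a to Rab27b and spans 1.52.

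Some levels are uncertain because near-identical sequence lies elsewhere in the genome. For 5 of the 59 genes at least 50% of the transcript matched elsewhere in mm9 at 95% identity or more, over 100 or more bases per hit and counted over all hits. These were Rab5b (99.7%, 1 hit), Rab7 (93.7%, 1 hit), Rab9 (85.4%, 1 hit), Rab11b (65.5%, 197 hits) and Rab2a (65.3%, 1 hit). None of them was past 1.5-fold. No such copy was found for Rab32, Rab26, Rab44, Rab40b or Rab4a, and for Rab27a 4.24% of the transcript was covered.

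The genes that act on Rab proteins stayed under 1.5-fold at a pseudocount of 1. A list of 132 was taken for them by role, and 113 passed the filter. At that pseudocount 0 of these were past 1.5-fold in either direction, beside 3.72% of all genes higher and 2.89% lower. At a pseudocount of 0.1, and with none, 1 was past 1.5-fold higher and 2 lower. Nothing particular to the list is read from these counts. Their median difference was -0.03 and the range ran from -0.42 for Rilpl1, an effector of Rab8 and Rab10, to 0.38 for Tbc1d9, a GAP-like protein. Of the 113, 43 were higher and 70 lower in Tet2 KO, where 48.8% of all genes that passed the filter were higher. This split was not tested. All 8 escort, prenylation and GDP dissociation inhibitor genes passed the filter, with Gdi2, the most abundant, at 167 FPKM in Tet2 KO and 178 in WT and the prenylation subunit Rabggtb at 112 and 123.

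Partners of Rab32 and Rab27a were then read one by one, a choice made with their values known. Hps1 and Hps4, which together form the exchange factor of Rab32 and Rab38, were at 4.85 and 5.42 FPKM in Tet2 KO and at 4.85 and 5.73 in WT. Ankrd27, an effector of Rab32 that also activates Rab21, was at 17.1 FPKM in Tet2 KO and 16.2 in WT. Lrrk2, a kinase that binds Rab32 and Rab29, was at 14.4 and 12.3 FPKM (0.21), and its relative Lrrk1 at 9.29 and 7.19 (0.33). Among the effectors of Rab27a the most abundant was the granule tether Sytl2, at 46.7 FPKM in Tet2 KO and 55.7 in WT (-0.25). Unc13d, which primes granules of leukocytes for release, was at 1.61 and 1.11 FPKM (0.31), and the melanosome linker Mlph was at 0.0208 and 0.0613. Sytl5 and Sytl4, relatives of Sytl2, were at 1.44 and 1.32 FPKM in Tet2 KO and at 2.21 and 1.25 in WT (-0.40 and 0.05). The plain ratio of Sytl5, 0.651, was past 1.5-fold. Myrip, below the filter, was at 0.133 FPKM in Tet2 KO and 0.0192 in WT. None of these partner genes reached 1.5-fold at a pseudocount of 1. Mlph and Myrip could not have reached it, because their values lie so far below the added 1.

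**Figure D5:**
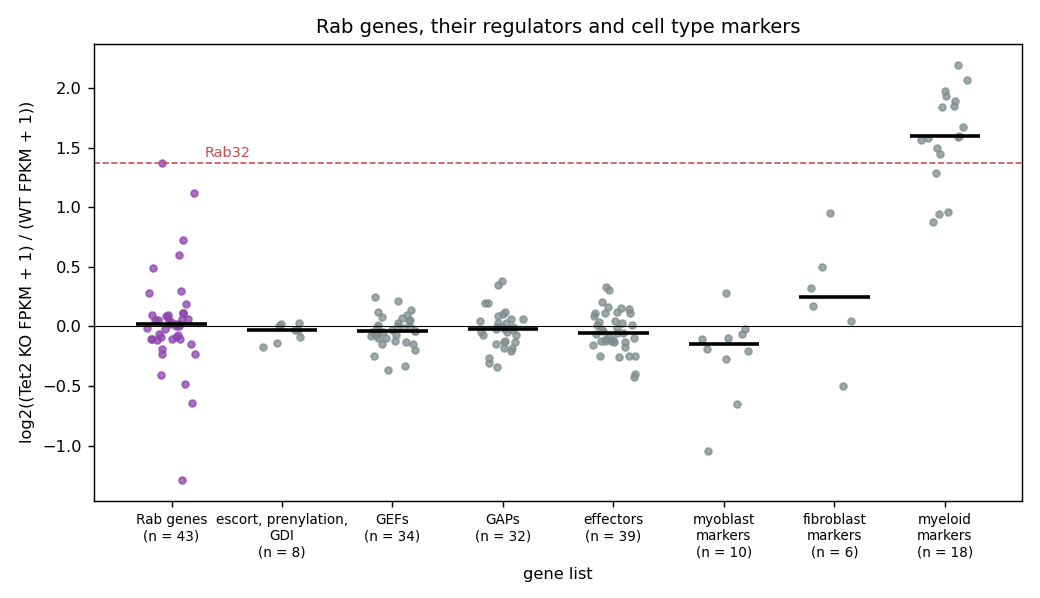
Difference between Tet2 KO and WT (log2 ratio at a pseudocount of 1) of each gene past the filter in the Rab family, in 4 lists of Rab regulators and in 3 lists of cell type markers, with the median as a black bar and the value of Rab32 as a dashed line. The regulators stay between -0.42 and 0.38, and the 18 myeloid markers lie between 0.88 and 2.19, a range that takes in Rab32 and Rab27a.

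The markers of other cell types gave fewer values to compare. None of the 9 lymphocyte markers passed the filter (summed levels 1.42 FPKM in Tet2 KO and 1.12 in WT), and 1 of 6 endothelial markers did. Of the 7 fibroblast markers 6 passed with a median of 0.25. The most abundant, Ly6a, was at 288 FPKM in Tet2 KO and 278 in WT (0.05). Ly6a encodes Sca1, which the sort had excluded before culture, as it had CD45 and CD11b. Which cells the Ly6a RNA came from was not tested, so its level is not read as a measure of fibroblasts. Col3a1 was at 171 and 152 FPKM (0.17), Col1a1 at 2.84 and 2.07 (0.32) and Pdgfra at 1.91 and 1.06 (0.50). Dcn was past 1.5-fold at 7.04 and 3.15 FPKM (0.95), and Postn lay on the other side of 0 at 6.05 and 8.95 (-0.50). The part of these cells in the differences of the Rab genes was not tested either.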

How the data were processed

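Per the study's methods and the submitters' processing notes, the authors trimmed reads, aligned read pairs to mm9 with TopHat2 2.0.13 and estimated FPKM with Cuffdiff 2.2.1. The gene annotation and the way the 2 libraries of a group were combined are not given in the sources used here. The deposited FPKM table had 1 pooled value per gene and group. Its columns with the authors' own comparison (log2 ratio, test statistic, p-value, q-value and call) were not used.

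Here the log2 ratio of Tet2 KO over WT was computed at a pseudocount of 1 over genes at a mean level of 1 FPKM or more, and the calculation was tested on simulated data (pandas 2.3.3). With no value per library there was no test, and genes were counted past 2-fold and 1.5-fold. The fragments behind a value were estimated from the steps of low single-exon genes and 1 annotated transcript length per gene, so they are approximate. Proteins were translated from GENCODE coding sequences on NCBIM37 (mm9) and aligned globally with Biopython 1.88, and copies were sought with BLAST 2.17.0. On this annotation 99.8% of the genes with an unambiguous symbol lay on the chromosome given in the table. Of these 20263 genes, the annotated start equalled the deposited start in 517 and the deposited start plus 1 in 8865. The starts of the remaining genes differed.

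Named were Rab32, members past 1.5-fold, the 5 most abundant, the 3 proteins most like Rab32, members above 1 FPKM in 1 group, the highest and lowest member of each compartment group, and regulators past 1.5-fold. Other genes named were chosen with their values known. The members and lists were chosen with earlier results of these data known.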

Additional observations from a re-analysis of the deposited data

How the results depend on the processing

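Alternatives were a pseudocount of 0.1 or none, no filter or a mean FPKM of at least 5, rescaling to TPM, and centring on the median of all genes. Of 92 alternative values 82 stayed near the value reported, 10 moved and 0 reversed. The 92 do not include log2 ratios of single members at a mean FPKM of at least 5. None of the members followed, Rab32, Rab20, Rab29, Rab3a and Rab27b among them, passed that filter. With a mean FPKM of at least 5, Rab32, Rab27a, Rab26, Rab44, Rab40b and Rab4a drop out, so the members past 2-fold were 0 higher and 0 lower, and past 1.5-fold 0 higher and 0 lower. With no pseudocount 4 members were past 2-fold higher, since Rab26 and Rab44 joined, Rab27a moved to 1.80, and the Rab regulators past 1.5-fold were 1 higher and 2 lower. The regulator counts were the same, 1 higher and 2 lower, at a pseudocount of 0.1. At both settings Rab20 and Rab3a joined the Rab members past 1.5-fold, which were then 5 higher and 3 lower. Beside them stood 4.94% of all genes higher and 4.01% lower with no pseudocount, and 4.82% and 3.83% at 0.1. No paired analysis was possible because the table holds 1 pooled value per group, and for the same reason no library could be left out. The spread between the 2 libraries of a group is therefore unknown for every difference.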
